A study of Homo sapiens with 6 samples.

Results

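The IFIT, IFITM and IFI genes are interferon-stimulated genes whose proteins act directly on viruses or on the fate of infected cells. The description covers 10 of them, IFIT1, IFIT2, IFIT3, IFIT5, IFITM1, IFITM2, IFITM3, IFI6, IFI27 and IFI44, out of 19871 gene symbols in the tables. They were selected on earlier results of these same data, in which interferon-stimulated genes stood higher after GAS5 transfection. Their values in that comparison are therefore a description and support nothing by themselves. All 10 were found by symbol, with 43 listed transcripts, 35 of them Ensembl models and the other 8 built from the reads.

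The RNA came from HCT116, a human line from a colorectal carcinoma. There were 3 groups with 2 libraries in each. NC was the negative control, GAS5 received a plasmid for the long non-coding RNA GAS5, and siYAP received siRNA against YAP, the transcriptional co-activator of the Hippo pathway. All cells shared the line and were otherwise not described as genetically altered. The labels list all 3 groups under an siRNA tag and do not say whether NC cells received an empty plasmid or a control siRNA. The GAS5 transcript and the plasmid that carried it therefore cannot be told apart in the GAS5 group. The deposited tables give 1 mean per group, so no spread between libraries could be computed, no test was run, and it is not known whether both GAS5 libraries show a given difference. In bulk RNA, more responding cells and more RNA per responding cell cannot be told apart.

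Depth was 25521577 mean counts in GAS5, against 27206123 in NC and 26298036 in siYAP. YAP1 stood at 2679 mean counts in GAS5, against 3480 in NC and 1444 in siYAP, a ratio of 0.440 in siYAP against NC. GAS5 itself has no row in these mRNA tables. All 8 epithelial markers were above 1 FPKM (fragments scaled by transcript length and library size) in every group. Of 6 colon markers, CDX2 alone was above 1 FPKM, and CDX1 was listed at 0. Of 12 leukocyte markers, 5 were listed at 0 in every group, among them the pan-leukocyte gene PTPRC. The summed FPKM of that list was 1.61 in GAS5, against 0.720 in NC and 0.975 in siYAP. Within it, CD14 had 37.5 mean counts in GAS5, against 4.5 in NC and 3.0 in siYAP, and ITGAM had 33.0 in GAS5, against 14.5 and 20.5. CD8A and CSF1R went the other way. CD8A had 16.5 mean counts in GAS5, against 19.5 in NC and 31.5 in siYAP, and CSF1R had 8.5 in GAS5, against 13.5 and 13.0. The part of these markers in the values below was not tested. The summed FPKM of 8 fibroblast and endothelial markers was 3.57 in GAS5, against 2.48 in NC and 3.29 in siYAP, most of it from the collagen gene COL1A1, which had 556 mean counts in GAS5, against 378.5 in NC and 540 in siYAP. The fibroblast gene DCN was listed at 0.

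Interferons bind receptors at the cell surface, and the receptor-bound kinases JAK1 and TYK2 then phosphorylate transcription factors. Among these, STAT2 joins IRF9 in ISGF3, a complex that binds the interferon-stimulated response element (ISRE) in promoters. A further interferon element is the gamma-activated site (GAS, a DNA element that shares only its abbreviation with the GAS5 gene). The IFIT proteins bind RNA that looks foreign, such as caps without ribose methylation, or each other. The IFITM proteins sit in membranes and hinder the fusion of enveloped viruses. IFI6 is a small protein of the endoplasmic reticulum, IFI27 a related small hydrophobic protein of organelle membranes, and IFI44 a cytoplasmic protein of less settled function.

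The members lie at 5 places in the genome (GENCODE 29, GRCh38). The 4 IFIT members lie close together on the plus strand of chromosome 10, in the order IFIT2 (start 89283694, end 89309276), IFIT3 (start 89327894, end 89340971), IFIT1 (start 89392546, end 89406486) and IFIT5 (start 89414586, end 89421001). Their relative IFIT1B (start 89378056, end 89385205) lies between IFIT3 and IFIT1. The cluster spans 137.3 kb. The 3 IFITM genes fill 19.9 kb near the end of chromosome 11, with IFITM2 (start 307631, end 315272) and IFITM1 (start 313506, end 315272) on the plus strand and IFITM3 (start 319669, end 327537) on the minus strand. IFI6 is on the minus strand of chromosome 1 (start 27666061, end 27672218), IFI44 on its plus strand (start 78649796, end 78664078), and IFI27 on the plus strand of chromosome 14 (start 94104836, end 94116698).

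Promoter windows from RefSeq on GRCh38.p14, which run from 250 bases before to 50 bases after the start of transcription, were present for 8 members, all but IFIT2 and IFITM2. Each was searched on both strands for the ISRE core, GAAA repeated after 2 unspecified bases, which reads TTTC repeated in the same way on the other strand. All 8 held at least 1 core, against 3.57% of the 35116 promoter windows in the table. The stretches around the cores are shown because all 8 windows hold this short element. The members were chosen as interferon-stimulated genes, so its presence is not independent of their choice. Capitals mark the cores. The first group is from the IFIT cluster, on the plus strand.
IFIT1, chr10:89392497-89392539: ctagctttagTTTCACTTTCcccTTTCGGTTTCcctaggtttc
IFIT3, chr10:89327831-89327894: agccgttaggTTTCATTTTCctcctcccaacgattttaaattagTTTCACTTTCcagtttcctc
IFIT5, chr10:89414513-89414542: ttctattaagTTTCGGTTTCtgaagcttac

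The pair of cores of IFIT1 and of IFIT3 stood between positions -156 and -94, where -1 is the base before the RefSeq start. In GENCODE the most abundant transcripts of IFIT1 and IFIT3 start at 89392546 and 89327894, shortly after these cores. IFIT5 had 3 cores, all within 45 bases of the start, and only the outermost is printed, since an exon annotated on the other strand overlaps this region and at most 30 bases of an exon are shown. A second start of IFIT3 had 2 cores of its own. The IFITM stretches below are short because other transcript models place them in an exon. IFITM1 is on the plus strand and IFITM3 on the minus strand.
IFITM1, chr11:313990-314019: caaacagcagGAAATAGAAActtaagagaa
IFITM3, chr11:320885-320913: gGAAAAGGAAActgttgaGAAACCGAAAc

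Both IFITM genes had 2 cores, and in both all cores stood within 52 bases of the RefSeq start. In GENCODE the most abundant IFITM3 transcript, ENST00000399808, starts at 321050 on the minus strand, so the IFITM3 cores lie downstream of that start. The most abundant IFITM1 transcript, ENST00000328221, starts at 313527 on the plus strand, and the IFITM1 cores also lie downstream of it. The IFI genes follow, with IFI6 on the minus strand and the others on the plus strand.
IFI6, chr1:27672266-27672358: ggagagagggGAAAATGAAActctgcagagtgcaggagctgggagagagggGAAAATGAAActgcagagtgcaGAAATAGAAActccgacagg
IFI27, chr14:94110618-94110660: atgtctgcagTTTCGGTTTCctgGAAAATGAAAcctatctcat
IFI44, chr1:78649761-78649788: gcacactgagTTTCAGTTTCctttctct

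IFI6 had 3 cores, 2 of them the same GAAAATGAAA, IFI27 had 2 cores on opposite strands, and IFI44 had 1. The GAS element, TTCNNNGAA, was found in 2 of the 8 members and in 7.66% of all windows. In IFI27 it overlaps both ISRE cores, and in IFITM1 it overlaps the core at the RefSeq start. Among the relatives with a window, IFI44L had 2 ISRE cores, and IFIT1B, IFITM5, IFI27L1, IFI27L2, IFI16, IFI30 and IFI35 had none. A match of letters does not show that a factor binds there.

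**Figure D1:**
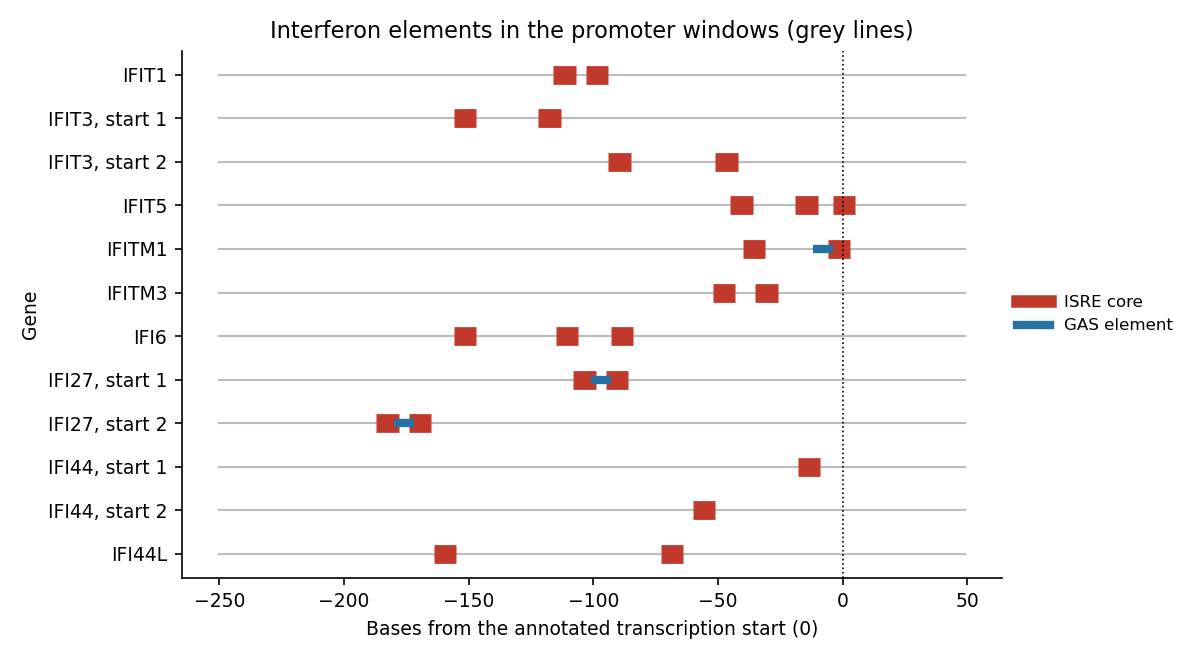
Position of ISRE cores (red) and GAS elements (blue) in the promoter windows of 8 members and of IFI44L, in bases from the annotated transcription start, with 1 grey line per window. Measured from the RefSeq starts, the cores of IFIT5 and the IFITM genes crowd near the start. Those of IFIT1, IFI6, both starts of IFI27 and the first start of IFIT3 lie further out. GENCODE places the starts of the most abundant transcripts of IFIT1, IFIT3, IFITM1 and IFITM3 elsewhere. From those starts the contrast does not hold for these genes.

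Against NC, 7 of the 10 members were higher by 2-fold or more in GAS5, and none was lower by that much. Over all 13379 genes that passed the filter on low counts, 2.20% were higher and 0.889% lower by 2-fold or more. The choice of the members used this comparison, so nothing is read from that contrast. The median log2 ratio of the members was 3.36, from 0.49 to 4.21, and that of all genes was 0.00. These log2 ratios were taken on TMM-scaled mean counts with a prior count of 2, whereas the folds below are ratios without a prior count, with a 95% interval that covers counting error only. All 10 members passed the filter in this comparison, IFI27 and IFI44 only through their GAS5 values.

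In siYAP against NC, none of the 10 members was 2-fold higher or lower, while 1.06% of 13308 genes were higher and 1.22% lower by that much. The median of the members was 0.16, from -0.55 to 0.53, with 7 above 0 and 3 below. IFI44 did not pass the filter there, and IFI27 passed only through its siYAP value. In GAS5 against siYAP the same 7 members were higher by 2-fold or more, against a background of 2.64% of 13386 genes higher and 2.02% lower, with a median of 3.35. That comparison shares the GAS5 values with the first and the siYAP values with the second. IFI44 passed the filter in it only through its GAS5 value.

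**Figure D2:**
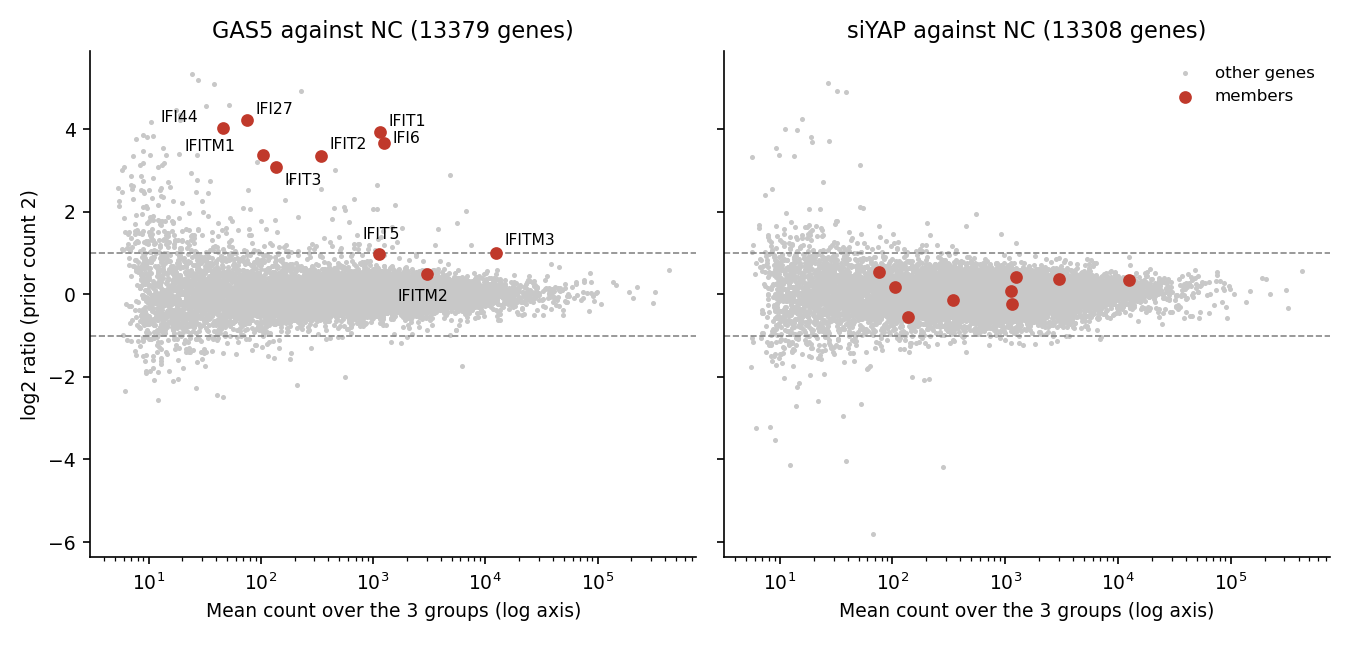
Log2 ratio (prior count of 2) against mean count over the 3 groups on a log axis, with 1 point per gene that passed the filter and the members in red. In GAS5 against NC, 7 members lie above 3 and IFIT5, IFITM3 and IFITM2 lie at 0.98, 0.99 and 0.49. In siYAP against NC the 9 members that passed lie between the dashed 2-fold lines.

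The level of the members differed more between genes than between groups. In NC, IFITM3 stood at 419 FPKM and IFITM2 at 144 FPKM, with only 1.14% and 3.17% of the 15492 genes above 0 standing higher. IFI6 followed at 11.5 FPKM, IFIT5 at 8.05, IFIT1 at 4.13 and IFITM1 at 1.10. IFIT2 (0.970 FPKM), IFI27 (0.655), IFIT3 (0.605) and IFI44 (0.140) were below 1 FPKM. Neighbours as close as IFI27 and IFIT3 cannot be ordered without a spread between libraries.

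In GAS5 the order in FPKM was IFITM3, IFITM2, IFI6, IFIT1, IFIT5, IFI27, IFITM1, IFIT2, IFIT3 and IFI44, so that IFIT1 stood above IFIT5 and IFI27 above IFITM1 and IFIT2. IFI6 reached 144 FPKM in GAS5, close to that of IFITM2 in NC. In siYAP the first 6 genes kept their NC order. IFI27 (0.950 FPKM) and IFIT2 (0.850 FPKM) changed places, but the counting intervals of their siYAP ratios to NC both hold 1. The members together took 0.118% of all mean counts in GAS5, against 0.0495% in NC and 0.0602% in siYAP. IFITM3 alone made up 71.0% of their summed FPKM in NC and 63.4% in GAS5. The 8 members other than IFITM2 and IFITM3 made up 4.61% of it in NC, 20.7% in GAS5 and 4.16% in siYAP.

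**Figure D3:**
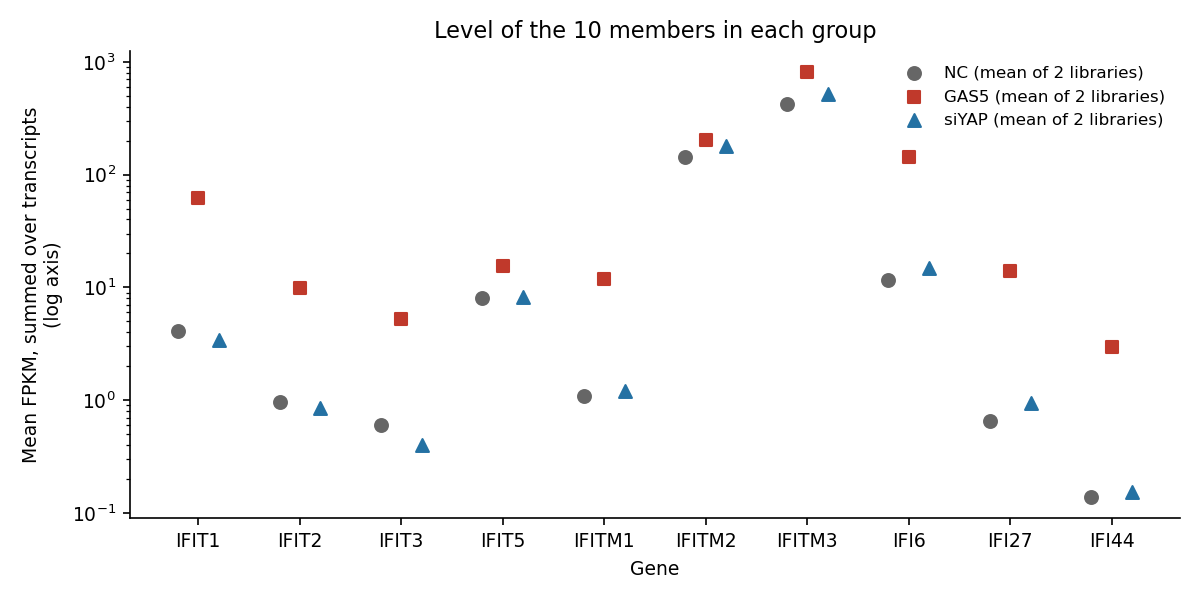
Mean FPKM of the 10 members, summed over the transcripts of each gene, in NC (circles), GAS5 (squares) and siYAP (triangles), on a log axis. Each point is a mean of 2 libraries deposited without a spread. IFITM2 and IFITM3 lie above 100 FPKM in every group, and the GAS5 point is the highest of the 3 for each gene.

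IFIT1, which binds RNA whose cap lacks ribose methylation, had 3050.5 mean counts in GAS5, against 216.5 in NC and 172.0 in siYAP. GAS5 stood far above both other groups, at 15.3 times NC (interval 13.9 to 16.9), and siYAP stood at 0.843 times NC (0.730 to 0.973). Nearly all of the gene's counts were in ENST00000371804, with 98.3% in NC and 99.1% in GAS5. IFIT1 shares 2.08% of the 50-base stretches of that transcript with its neighbour IFIT1B, which was listed at 0 in every group.

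IFIT2, which forms complexes with IFIT1 and IFIT3, had 871.5 mean counts in GAS5, against 90.5 in NC and 77.5 in siYAP. The ratio was 10.5 in GAS5 (8.96 to 12.2) and 0.909 in siYAP, with an interval of 0.728 to 1.13 that holds 1. Its main transcript ENST00000371826 had 728 mean counts in GAS5, against 63.1 in NC and 63.3 in siYAP. A second one, ENST00000611722, had 144 in GAS5, against 27.4 and 14.3, so that it made up 30.2% of the gene in NC and 16.5% in GAS5.

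IFIT3, which stabilises IFIT1 and strengthens its grip on RNA, had 343.0 mean counts in GAS5, against 42.0 in NC and 26.5 in siYAP. The ratio was 8.86 in GAS5 (7.06 to 11.3) and 0.669 in siYAP (0.465 to 0.955), the lowest siYAP ratio of the 10. All NC counts were given to ENST00000371818, whose mean counts were 312 in GAS5, against 42.0 in NC and 14.5 in siYAP. The rest went to ENST00000371811, at 0 in NC, 31.1 mean counts in GAS5 and 12.0 in siYAP. In siYAP these transcripts therefore differed from NC in opposite directions, at counts too low to say how reads were shared between them.

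IFIT5, which binds RNA with other kinds of end, was the member of this family with the highest NC count and the smallest ratio in GAS5. It had 1617 mean counts in GAS5, against 891.5 in NC and 886.5 in siYAP, all in its only listed transcript. The ratio was 1.97 in GAS5 (1.86 to 2.09), just below 2-fold, and 1.06 in siYAP (0.987 to 1.13). Its window held 3 ISRE cores, and a relation between the number of cores and the ratio was not tested.

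IFITM1, the member of its family found mostly at the cell surface, had 262 mean counts in GAS5, against 25.7 in NC and 27.4 in siYAP. The ratio was 11.1 in GAS5 (8.34 to 15.1) and 1.13 in siYAP, with an interval of 0.767 to 1.71. IFITM2 and IFITM3, which act in endosomes, started far higher and differed less. IFITM2 had 3349 mean counts in GAS5, against 2586 in NC and 3124 in siYAP, with a ratio of 1.41 (1.36 to 1.46) in GAS5 and 1.28 (1.24 to 1.33) in siYAP. IFITM3 had 17079 in GAS5, against 9339 in NC and 11162 in siYAP, with a ratio of 1.98 (1.95 to 2.02) in GAS5 and 1.27 (1.24 to 1.29) in siYAP. For IFITM2 the values of GAS5 and siYAP were close, with GAS5 at 1.09 times siYAP (1.05 to 1.12).

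The IFITM genes are near copies, and how reads were divided among them bears on these values. Of the 50-base stretches of the main IFITM1 transcript, 61.1% occur in no other gene and 35.5% are shared with IFITM2, and the share found in no other gene was 82.7% for IFITM2 and 79.7% for IFITM3. Doubled, the mean counts of the other 7 members lay within 0.02 of a whole number in every group, while those of IFITM1, IFITM2 and IFITM3 did not, although their sum did. Reads were thus split between these genes by estimate. Their sum, which the split does not touch, was 20691 mean counts in GAS5, against 11951 in NC and 14314 in siYAP, a log2 ratio of 0.91 in GAS5 and 0.35 in siYAP.

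A single transcript listed as IFITM2, ENST00000399815, differed from its gene. It had 111 mean counts in GAS5, against 10.9 in NC and 8.11 in siYAP, a log2 ratio of 3.25 in GAS5 where the main IFITM2 transcript ENST00000602569 (1663 mean counts in GAS5, against 1130 in NC and 1413 in siYAP) had 0.67. In GENCODE 29 this model runs on chromosome 11 from 308408 to 315272, and 319 of its 382 bases (83.5%) lie in the last exon of IFITM1, which spans 314922 to 315240. Counted with IFITM1, an assignment chosen after seeing these values, it brought that gene to 372 mean counts in GAS5, against 36.5 in NC and 35.5 in siYAP, and the log2 ratios in GAS5 were 3.40 for IFITM1 and 0.45 for IFITM2.

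IFI6, which blocks cell death and the replication of flaviviruses, had 3146 mean counts in GAS5, against 268 in NC and 337 in siYAP. The ratio was 12.7 in GAS5 (11.7 to 13.9) and 1.33 in siYAP (1.19 to 1.50), so that both treated groups stood above NC beyond counting error. Its main transcript ENST00000361157 made up 88.6% of the gene in NC, 86.0% in GAS5 and 84.6% in siYAP. ENST00000362020 had 361 mean counts in GAS5, against 19.0 in NC and 51.8 in siYAP. ENST00000339145 had 11.7 in NC and 81.3 in GAS5, but 0 in siYAP, against the direction of the gene there.

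IFI27, whose protein is also known as ISG12, had 203 mean counts in GAS5, against 10.0 in NC and 14.5 in siYAP. It had the highest ratio of the 10 in GAS5, at 22.0, but from few NC counts, and the interval ran from 14.1 to 36.5. In siYAP the ratio was 1.54, with an interval of 0.841 to 2.87 that holds 1. Of its 15 listed transcripts, ENST00000618863 led with 107 mean counts in GAS5, against 4.73 in NC and 8.83 in siYAP. ENST00000621160 had 57.6 mean counts in GAS5 and was listed at 0 in both other groups. ENST00000620396 had 1.71 mean counts in GAS5, against 3.38 in NC and 0 in siYAP, too few to compare.

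IFI44 had 125 mean counts in GAS5, against 6.5 in NC and 7.0 in siYAP, the lowest NC level of the 10. The ratio was 20.9 in GAS5 (12.0 to 39.8) and 1.14 in siYAP (0.498 to 2.64). The siYAP interval is so wide that it holds a 2-fold difference from NC in either direction. The intervals of IFI44, IFI27 and IFIT1 in GAS5 overlap, so their order is not fixed even by counting error alone.

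**Figure D4:**
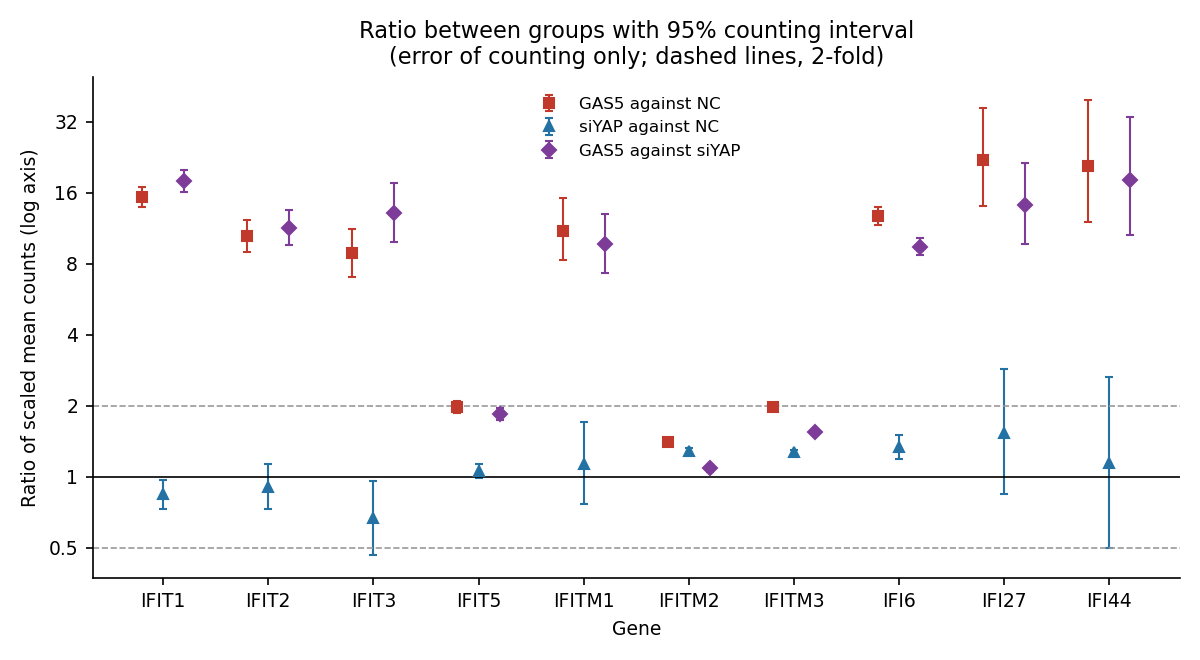
Ratio of TMM-scaled mean counts without a prior count on a log axis, with 95% counting intervals, for the 10 members in GAS5 against NC (squares), siYAP against NC (triangles) and GAS5 against siYAP (diamonds). In GAS5 against NC, 7 genes lie between 8.86 and 22.0 and the other 3 at or below 1.98. All siYAP ratios against NC lie between 0.669 and 1.54.

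By transcript, 33 of the 43 were above 0 in at least 1 group. Of the 15 with at least 10 mean counts in NC, 9 were 2-fold higher in GAS5, against 5.10% of all 38906 transcripts with that NC count. Over all 43, 19 were 2-fold higher in GAS5 and none was 2-fold lower, while in siYAP 4 were higher and 4 lower by that much. Over all 92866 transcripts, without a filter, 9.79% were 2-fold higher and 7.89% lower in GAS5, and 8.05% were higher and 9.69% lower in siYAP. Some member transcripts listed at 0 in NC had from 0.81 to 57.6 mean counts in GAS5, and these counts enter the gene sums.

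Of 9 relatives by name or sequence, 6 passed the filter in GAS5 and 2 of them were 2-fold higher, against 2.20% of all genes that passed. IFI44L, the neighbour and paralog of IFI44, had 0.5 mean counts in NC, which is 1 read over both libraries, and 21.5 in GAS5, with 0 listed for siYAP. Its ratio of 46.7 has a counting interval of 7.94 to 1886, and IFI44L passed the filter only through its GAS5 value. IFI35, a leucine zipper protein induced by interferon, had 459.5 mean counts in GAS5, against 232.5 in NC and 202.5 in siYAP, a ratio of 2.15 in GAS5 (1.92 to 2.40). IFI30, a thiol reductase of antigen processing, was close to level at 1889, 1925 and 1987.5 mean counts.

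The paralogs IFI27L1 and IFI27L2 flank IFI27 and had log2 ratios in GAS5 of 0.11 and 0.03, against 4.21 for IFI27 between them. IFI27L1 had 132 mean counts in GAS5, against 133 in NC and 123 in siYAP, and IFI27L2 had 214 in GAS5, against 227 and 254. IFITM10 had 13.3 mean counts in GAS5, against 9.07 in NC and 25.2 in siYAP, which put it 2-fold higher in siYAP (log2 ratio 1.37). IFITM5, a bone protein, was listed at 0 in every group, and the DNA-binding protein IFI16 had 4.0 mean counts in GAS5, against 2.0 in NC and 2.0 in siYAP.

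Genes beside the members were compared at the nearest protein-coding gene on either side that passed the filter, matched by symbol. Of these 10, 9 had log2 ratios under 0.5 in size in both comparisons. The other was IFI44L, which passed the filter only through its GAS5 value. FAS, 268 kb before the IFIT cluster, had log2 ratios of 0.31 in GAS5 and -0.34 in siYAP, and PANK1, 158.5 kb after it, had -0.13 and 0.06. PGGHG, 11.5 kb from the IFITM cluster, had 0.09 and -0.02, and B4GALNT4 on its other side had 0.43 and 0.20. AHDC1 and FAM76A beside IFI6 had -0.12 and 0.20 in GAS5, and TTLL7, which is 5201 kb from IFI44, had -0.38.

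Few interferon genes had counts. The order of events between the members and the interferon pathway genes described from here on was not tested. IFNL1, a type III interferon, was listed at 0 in NC and siYAP and had 31.5 mean counts in GAS5, at least 22.8-fold higher when 3 reads over the NC group are taken as the floor. IFNL1 passed the filter only through its GAS5 value. IFNL3 had 68.5 mean counts in GAS5, against 55.0 in NC and 58.5 in siYAP. IFNL2, a near copy of IFNL3 whose share of reads is uncertain, had 12.5 in GAS5 and was listed at 0 in the other groups. IFNB1 had 2.5 mean counts in GAS5 and IFNA2 1.5, both with 0 elsewhere. Of the 11 ligands, 5 were listed at 0 in every group.

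None of the 9 interferon receptors and kinases was 2-fold higher or lower in either comparison, with a median log2 ratio of -0.09 in GAS5. Among them JAK1 had the lowest value in GAS5 (-0.32) and the receptor chain IFNGR2 the highest (0.18). Of the 6 ISGF3 and IRF genes compared, IRF9 and IRF7 were 2-fold higher in GAS5 and none in siYAP. IRF9, the DNA-binding subunit of ISGF3, had 1177 mean counts in GAS5, against 470 in NC and 527 in siYAP, with log2 ratios of 1.44 and 0.25. STAT2 had 0.47 and 0.21.

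IRF7, which drives interferon genes, had 1386 mean counts in GAS5, against 300 in NC and 352 in siYAP, with log2 ratios of 2.32 and 0.31, and IRF3 was lowest of that list in GAS5 at 0.02. Of the 5 genes of RNA sensing, 3 were 2-fold higher in GAS5, namely IFIH1, DDX58 (2.07 on the log2 scale) and TLR3 (1.23). IFIH1, the sensor MDA5, had a log2 ratio of 2.09 in GAS5 and -0.24 in siYAP, and the adaptor MAVS had -0.36 and 0.01. Of 4 listed DNA sensor genes, only TMEM173 (STING) passed the filter, with -0.23 in GAS5. CGAS had 2.5 mean counts in GAS5, against 1.0 in NC and 1.0 in siYAP, and AIM2 and ZBP1 were listed at 0.

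Of 7 feedback inhibitors, USP18 alone was 2-fold higher in GAS5, with 821.5 mean counts in GAS5, against 252 in NC and 215 in siYAP (log2 ratios 1.81 and -0.14). PIAS1 was the lowest of that list in GAS5 at -0.14. SOCS1 was 2-fold higher in siYAP, at 1.25, with 63.0 mean counts in NC and 143.5 in siYAP. Of the genes that build or turn over RNA caps, none was 2-fold higher or lower in either comparison. Of the 5 listed, CMTR1, the methyltransferase for the first ribose of the cap, was highest in GAS5 at 0.58 and DXO lowest at -0.04. The 7 partners and modifiers of IFITM proteins ran from -0.34 for NEDD4, a ubiquitin ligase that marks IFITM3 for degradation, to 0.11 for the tetraspanin CD81 in GAS5. NEDD4 stood at -0.87 in siYAP, with 805 mean counts in GAS5, against 1106.5 in NC and 569.5 in siYAP.

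**Figure D5:**
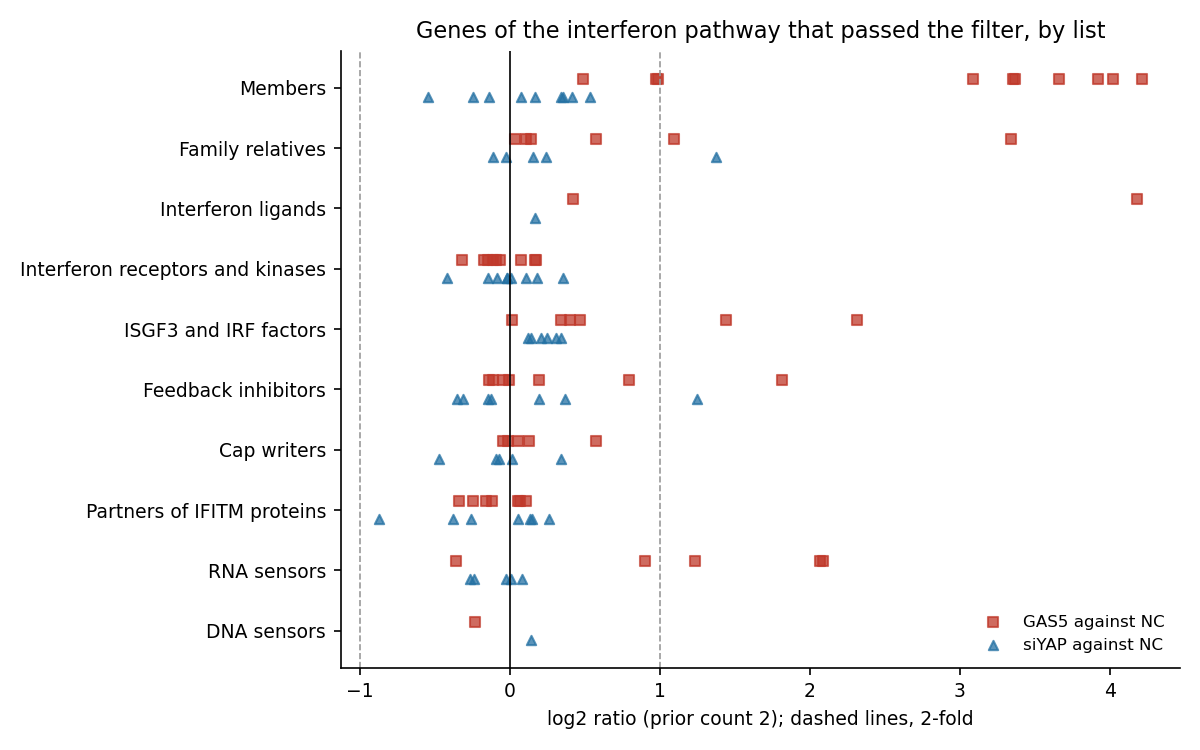
Log2 ratio (prior count of 2) of each gene that passed the filter, by list, in GAS5 against NC (red squares) and siYAP against NC (blue triangles), with dashed lines at 2-fold. Receptors and kinases, cap writers and IFITM partners lie within the lines in both comparisons, while 2 ISGF3 and IRF genes and 3 RNA sensor genes lie above in GAS5.

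The genes most like the members' median pattern were sought among 11898 genes with at least 50 mean counts over the 3 groups, by the distance of their log2 ratios in GAS5 and siYAP from the members' medians. The nearest was CMPK2, a mitochondrial nucleotide kinase that lies beside RSAD2, at a distance of 0.18 with ratios of 3.19 and 0.21. ISG15, a ubiquitin-like modifier, followed at 0.49 with 11022 mean counts in GAS5, against 1608 in NC and 1880.5 in siYAP. OASL was next at 0.59. NMNAT3, an enzyme of NAD synthesis, came at 0.81 and JUN, a subunit of the AP-1 factor, at 0.90, with log2 ratios in GAS5 of 2.56 and 2.64. Likeness here rests on 3 group means. The members were chosen with the GAS5 comparison, and likeness uses that same comparison, so genes higher in GAS5 are returned by construction. That these genes were higher in GAS5 therefore supports nothing by itself. The count floor also includes GAS5. CMPK2 was below 50 mean counts in NC and in siYAP and passed only through its GAS5 value.

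Outside the members, 182 genes with a promoter window were 2-fold higher in GAS5, and 30 of them (16.5%) held an ISRE core, against 359 (3.59%) of the 10005 other genes with a window that were not. In siYAP, 3 of 69 genes that were 2-fold higher (4.35%) and 381 of the other 10059 (3.79%) held one, again without the members. These shares are descriptions of the same tables and were not tested.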

How the data were processed

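LncRNA-sequencing libraries of HCT116 cells in 3 groups (NC, GAS5, siYAP), 2 per group, were strand-specific. The authors deposited 1 table per treatment with means per group. The deposited expected counts are estimated counts per mRNA transcript, and the deposited FPKM are scaled by length and depth, with 0 replaced by 0.001, set back to 0 here. The submitters' processing notes name TopHat2 2.1.1. The counter, genome build and test are not given in the sources used here. The authors' log2 fold changes, p-values and FDR were not used.

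The members and gene lists were chosen with earlier results of these data known. Counts were summed by symbol. 339 transcripts without a symbol held 0.195% to 0.224% of counts and were left out. Group means were scaled with TMM of edgeR 4.0.16 (R 4.3.3) after filterByExpr (minimum count 10). The log2 ratio used a prior count of 2, and 2-fold means 1 or more on that scale. Intervals are 95% Clopper-Pearson intervals on the reads behind 2 libraries, conditional on their sum, and cover counting error only. The planned comparison of libraries could not be run on means, so no p is given. The scaling and the log2 ratios were tried on simulated data, but the intervals were not checked there. The simulation changed only genes with more NC counts than IFIT3, IFITM1, IFI27 and IFI44 had. Named genes are the members, their relatives, the highest and lowest of each list in GAS5, STAT2, IRF9, flanking genes and the 5 most alike. Other genes named (IFNL2, IFNB1, IFNA2, DDX58, TLR3, SOCS1, CGAS, AIM2, ZBP1 and the markers) were chosen after their values were seen. Alternatives were DESeq2 1.42.0 size factors, total counts, no filter, prior counts of 0.5 and 5, FPKM ratios, the main transcript alone, Ensembl transcripts only, and 1 mismatch in the ISRE core. Python 3.11.15 was used. GENCODE 29 and RefSeq tables gave positions and promoters. A gene of the ISGF3 and IRF list is not reported here. RAMAC was not matched by symbol, nor were MB21D1 and STING1, the other names of CGAS and TMEM173.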

Additional observations from a re-analysis of the deposited data

How the results depend on the processing

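No paired analysis was possible because each group enters as a single mean. Leaving out a replicate, the edgeR quasi-likelihood fit with a replicate block and the DESeq2 test were therefore not run. Over the alternatives, 7 members stayed 2-fold higher in GAS5 against NC, with a median log2 ratio between 3.28 and 3.41, and 7 in GAS5 against siYAP, with a median between 3.30 and 3.41. In siYAP against NC the median ran from 0.11 to 0.18, and with the most abundant transcript alone 1 member, IFIT3, was 2-fold lower (log2 ratio -1.34), where its second transcript is left out by construction. Of 270 member values under an alternative, 10 lay outside their counting interval and no 2-fold value changed sign. The main transcript alone gave IFITM2 0.67 in GAS5 against NC. IFITM3, whose interval is the narrowest, was at 0.96 with total counts and 0.95 with FPKM there. Without the filter, 3 ligands in place of 1 were 2-fold higher in GAS5. With 1 mismatch allowed, all 8 members and 33% of all windows held an ISRE core, so that form of the search says little. The counter's split of reads between transcripts and the spread between libraries are not in these values.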
